A study of Mus musculus with 8 samples.

Results

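Step-rich probes with short runs are printed DNA oligonucleotides in which many places can form a UV lesion while no pyrimidine stretch is long. They were chosen by sequence alone. A probe had to carry the shared 3′ end of the array, hold 9 or more dipyrimidine steps (TT, TC, CT or CC) summed over the printed strand and its complement, have no pyrimidine run over 7 bases on either strand, and carry none of the names RUNX, GATA, E2F1, Myc, ETS1 or CTCF. These conditions were met by 5221 of 122095 sequences (4.28%), and 460 further sequences met them except for a factor name. The array was stained with a mouse antibody against cyclobutane pyrimidine dimers (CPD, dilution 1:400) or a mouse antibody against 6-4 photoproducts (6-4PP, dilution 1:80), after UV or without UV. The 8 arrays form 4 groups of 2, namely CPD with UV, CPD without UV, 6-4PP with UV and 6-4PP without UV. All groups share 1 probe design of synthetic DNA, and the labelled organism, mouse, refers to the antibodies' host and not to the DNA. Nothing in the labels says that the 2 arrays of a group were irradiated or stained separately, so p-values measure the spread between these arrays, which may be technical. Neither the UV dose nor how the complement was synthesised is given in the labels.

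UV light joins adjacent pyrimidines of the same strand. In a CPD both pyrimidines are bridged by a cyclobutane ring, and the TT step is the classic site. In a 6-4PP a single bond joins them, and TT and TC are the steps best known for it. A probe with many steps therefore offers many places for a lesion, on either strand, and the members show how antibody staining depends on how many steps there are, which ones, and on which strand.

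The variable part of each probe is its first 27 bases, followed by 33 bases that are the same in every member and hold no step. Sequences below are written 5′ to 3′ as printed, and capitals mark the bases that belong to a dipyrimidine step of the printed strand. Steps of the complement appear as pairs of purines in lower case. The shared end is given once, as the background common to all members:
shared end: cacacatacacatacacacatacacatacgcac

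The members with the most steps hold 12, and they differ in make-up from no TT at all to 6 printed TT:
All_9mer_14bp_7726: atgcaCTCCTCTgaggagatgcgcacg
All_9mer_14bp_27320: atgcaTTTCTTCagggaagtgcgcacg
All_9mer_14bp_30282: atgcaTTTTTTTagggggatgcgcacg
All_9mer_14bp_27382: gtatgcaaaaggaCCTCCTTgcgcacg

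Strand is shown by members with all 10 steps on the printed strand, given first, and by members with all 10 on the complement:
All_9mer_14bp_2276: atgcaCCCCTaTTTCCTTatgcgcacg
All_9mer_14bp_40264: atgcaCTCCCTTaTCTTTatgcgcacg
All_9mer_14bp_3450: atgcacaaggggtaggaggtgcgcacg
All_9mer_14bp_11067: atgcacgggggtgggaagatgcgcacg

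The brightest rises with UV came from members with several T runs for CPD (the first 4 lines) and from 1 of these with a further 3 for 6-4PP:
All_9mer_14bp_30458: tatgcaTTCCTTagcaTTTTgcgcacg
All_9mer_14bp_12375: gtatgcaagTTCTTCaaTTTgcgcacg
All_9mer_14bp_7702: tatgcaTTCTaaaTTgaTTTgcgcacg
All_9mer_14bp_42450: tatgcaTTTTggacaTTTTCgcgcacg
All_9mer_14bp_6173: atgcaCCTCCCTggCTCaatgcgcacg
All_9mer_14bp_9840: gtatgcgggCCTaagTCCTTgcgcacg
All_9mer_14bp_26587: tatgcaTTCTTgaTTCaaTCgcgcacg

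Members near the median of their class, chosen after their values were seen, stand for 3 printed TT in 1 T run, 3 printed TT in 3 T runs, 4 printed TC, 0 printed TC, and no TT, in that order:
All_9mer_14bp_24216: tatgcaCTTTTgCCaaaagtgcgcacg
All_9mer_14bp_14127: tatgcaTTggTTggTCCCTTgcgcacg
All_9mer_14bp_34529: tatgcaTCTCaaaCTTCTTCgcgcacg
All_9mer_14bp_17963: atgcaCCggTTTTgaggagtgcgcacg
All_9mer_14bp_15829: tatgcgggtggCCCTCgagtgcgcacg

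Most members had just enough steps to qualify: 3863 held 9, 1160 held 10, 190 held 11 and 8 held 12. The 4 step types were equally common, with a mean of 2.32 TT, 2.32 TC, 2.33 CT and 2.33 CC per member, and the printed strand carried 4.54 ± 2.21 (SD over members) of the steps. The steps lay in 2 to 5 separate runs, and 577 members held no TT. By the design names, 4627 members came from the class All_9mer_14bp and 594 from All_8mer_13bp. Each of the 5221 members was printed once, so a member has 1 spot per array and its only replicate is the second array of the group. At least 1 array saturated the spot of 26 members.

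Replicate arrays gave the same order of members after UV, with a Pearson correlation of log2 intensity over members of 0.946 for CPD and 0.934 for 6-4PP. Without UV the corresponding values were -0.013 and 0.020, and the same-numbered arrays of the 2 antibodies resembled each other (0.793 for replicate 1 and 0.766 for replicate 2). Deviations from the group means also correlated between same-numbered arrays of the 2 antibodies, at 0.687 with UV and 0.778 without, but not between UV and non-UV arrays of 1 antibody (-0.0089 and -0.011). The labels do not say whether same-numbered arrays share a slide. A few spots were bright without UV: 68 members exceeded an intensity of 10000 on a non-UV array, 19 of them on both replicate 1 arrays, 23 on both replicate 2 arrays, and 0 on a replicate 1 and a replicate 2 array. All_9mer_14bp_10430, for example, read 65289 and 913 on the CPD non-UV arrays and 64342 and 1188 on the 6-4PP non-UV arrays, against 2197 and 1787 with CPD and 8834 and 8175 with 6-4PP after UV. Of the 7 members named for the smallest rise with either antibody, each had such a pair of bright non-UV spots on 1 replicate number.

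UV raised the staining of nearly every member with both antibodies. Intensities are the deposited values adjusted for the local neighbourhood, on a linear scale, and a class is given by the median over its probes on each array. The CPD medians of the members were 1248 and 1044 on the non-UV arrays and 6770 and 6078 on the UV arrays. The 6-4PP medians were 1523 and 1230 without UV and 12435 and 12356 with it. With each antibody the 2 UV medians exceeded the 2 non-UV medians, and the 470 probes without any step reached only 1606 ± 10.8 (SD, n = 2) with CPD and 1940 ± 13.4 with 6-4PP after UV. Without centring, limma called 5064 members higher with CPD, where 92.0% of all sequences were called, and 5146 members higher with 6-4PP, where 96.0% were, each at an adjusted p under 0.05, and 0 members lower with either antibody.

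Set against the median of each array, which removes the rise shared by all probes, members were called about as often as other sequences, but more of their calls were upward. In either direction limma called 78.6% of the members with CPD, beside 79.7% of all sequences, 77.0% with 6-4PP, beside 76.4%, and 51.4% for the difference between the antibodies, beside 51.7%. By direction, limma called 3281 members higher with CPD, beside 39.5% of all sequences, and 822 lower, beside 40.2%. For 6-4PP 3690 members were called higher, beside 36.4%, and 332 lower, beside 39.9%. In percent of the members these are 62.8 and 15.7 for CPD and 70.7 and 6.36 for 6-4PP. The UV effect was larger with CPD in 1248 members (33.6% of all sequences were called this way) and larger with 6-4PP in 1435 (18.1%). Without centring the split was 199 members toward CPD, beside 6.58% of all sequences, and 2095 toward 6-4PP, beside 27.9%. Under quantile normalization limma called 411 members with CPD (7.87%, beside 6.91% of all sequences) and 403 with 6-4PP (7.72%, beside 5.37%), shares near the background with both directions together. By direction, 359 members were higher and 52 lower with CPD, beside 5387 and 3048 of the 122095 sequences. With 6-4PP 394 were higher (7.55% of the members) and 9 lower (0.17%), beside 4343 and 2218 sequences. For the difference limma called 0 members, beside 0.00% of all sequences, where 785 members had an unadjusted p under 0.05. With same-numbered arrays of 1 condition taken as pairs, the difference was called in 62.9% of the members, beside 64.2% of all sequences.

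Staining rose with the total number of steps up to about 8 and then rose little with either antibody. Over all probes with short runs, the CPD intensity after UV was 3192 ± 212 (SD, n = 2) at 4 steps, 5864 ± 440 at 7 and 6262 ± 548 at 8. Just inside the rule it was 6341 ± 525 at 9 steps, then 6506 ± 493 at 10 and 7169 ± 908 at 11. The values from 8 to 11 steps differed by less than or about the spread between the 2 arrays, but each array rose at every step. In log2 above the step-free probes, replicate 1 read 2.04, 2.06, 2.09 and 2.28 at 8, 9, 10 and 11 steps. Replicate 2 read 1.88, 1.90, 1.95 and 2.03. The 6-4PP intensity was 5614 ± 30.4 at 4 steps, 10771 ± 17.5 at 7, 11762 ± 7.47 at 8, 12226 ± 58.7 at 9, 12848 ± 100.7 at 10 and 13234 ± 96.4 at 11. It thus kept rising by more than the spread between arrays, but by less per step from 8 to 11 than from 4 to 8. Over all classes of probe together, CPD per step and above the step-free probes peaked at 608 ± 61.3 units with 7 steps. It read 526 ± 57.1 with 9 and 490 ± 48.2 with 10. For 6-4PP the peak was 1262 ± 4.42 with 7 steps, against 1143 ± 5.03 with 9 and 1091 ± 11.4 with 10.

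The flattening was tested as a change of slope. On each array the least-squares slope of log2 intensity on total steps was taken in probes with 1 to 8 steps and in the members, and the UV minus non-UV difference was fitted with limma over a table of 152 such class summaries. Of these, 96.7% passed with CPD, 98.7% with 6-4PP and 87.5% as a difference between the antibodies, so passing is the common outcome and sizes carry more than calls. For CPD the log2 slope was 0.19 (SE 0.01) per step below 9 steps and 0.03 (SE 0.01) in the members. The change was -0.16 (SE 0.01, limma adjusted p = 7.44e-05). The remaining CPD slope among the members lay at the threshold (limma adjusted p = 0.047) and was lost when any array other than replicate 1 of CPD with UV was left out (0.03 in each case). It was also lost with the replicate number as a block (limma adjusted p = 0.0796). For 6-4PP the slope was 0.28 (SE 0.01) below and 0.09 (SE 0.01) in the members, a change of -0.19 (SE 0.01, limma adjusted p = 2.76e-05). Quantile normalization reduced this change to -0.07 (limma adjusted p = 0.0556). Among the members the CPD slope minus the 6-4PP slope was -0.06 (SE 0.02, limma adjusted p = 0.0225), a call lost when same-numbered arrays of 1 condition were taken as pairs (limma adjusted p = 0.0828). The difference between the antibodies in the change, 0.03 (SE 0.02), missed the threshold (limma adjusted p = 0.18). In linear units the CPD slope was 702 (SE 59.2) per step below and 38.1 (SE 57.5) in the members, and the 6-4PP slope 1467 (SE 59.2) and 445 (SE 57.5).

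The kind of probe changes along the step axis. The class All_8mer ends at 6 steps, where it was dimmer at equal step number (CPD 3466 ± 192 against 5461 ± 416 in All_9mer_14bp). The peak per step at 7 steps was over all classes. All_9mer_14bp read 4813 ± 373 (SD, n = 2) at 5 steps and 5913 ± 450 at 7 with CPD after UV. With 6-4PP it read 8507 ± 10.8 and 10830 ± 4.85. Per step above the step-free probes, that class was thus lower at 7 steps than at 5 with both antibodies. Within All_9mer_14bp alone, an analysis added with the values in view, the CPD slope went from 0.12 to 0.03, a change of -0.09 (SE 0.01, limma adjusted p = 0.000662). The 6-4PP slope within that class went from 0.20 to 0.08, a change of -0.12 (SE 0.01, limma adjusted p = 0.000206). Both changes were smaller than over all classes by over 1.5 times, and both passed the threshold.

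The CPD level of a member followed its number of TT steps. Over both strands, members with 0 TT read 2044 and 1948 on the CPD UV arrays, against 1613 and 1598 in the step-free probes, although they hold 9 or more other steps. With 1 TT they read 4332 and 3995, with 2 TT 7038 and 6222, with 4 TT 10896 and 9561, and with 6 TT 14230 and 12327. The level thus rose over the whole range of TT. The step from 6 to 7 TT (14531 and 12516) was upward on both arrays but smaller than the spread between them. All_9mer_14bp_7726, with 12 steps and no TT, read 1328 and 1016 without UV and 1917 and 1836 with it under the CPD antibody. Its 6-4PP readings were 1549 and 1119 without UV and 17084 and 16204 with it. The same total of 12 steps with 6 printed TT, in All_9mer_14bp_30282, gave CPD readings of 1329 and 1046 without UV and 15933 and 13116 with it. That probe read 2221 and 1376, then 11815 and 12181, under the 6-4PP antibody. So these 2 members, with equal step totals, took opposite orders under the 2 antibodies.

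At a fixed number of TT, the CPD level moved with the total but did not rise steadily over its whole range. Probes with 2 TT read 7584 ± 758 (SD, n = 2) when those were their only steps, 6739 ± 525 at 5 total steps, 7455 ± 523 at 7, 6710 ± 549 at 9 and 6569 ± 601 at 10. Probes without TT rose by more than the spread between arrays, from 1727 ± 26.2 at 1 step to 2020 ± 42.3 at 7, and read 2027 ± 61.4 at 9 and 1954 ± 74.4 at 10. Probes with 5 TT went from 11701 ± 990 at 5 steps to 13453 ± 844 at 7 and 12207 ± 842 at 9. Probes with 3 TT fell from 9963 ± 836 at 7 steps to 7986 ± 593 at 10. Those with 4 TT fell from 11885 ± 942 at 7 to 9656 ± 1633 at 11. The 39 probes with 2 TT and 11 steps read 5607 ± 212. Some of these moves were at least as large as the linear TT coefficient of the members, 1674. With TT held in the regression, a comparison picked with the values in view, the CPD slope on total steps was 0.01 (SE 0.01, limma adjusted p = 0.268) below 9 steps. In the members it was -0.07 (SE 0.01, limma adjusted p = 0.00222), a change of -0.09 (SE 0.01). Within All_9mer_14bp alone it was already negative below 9 steps, at -0.04 (SE 0.01, limma adjusted p = 0.024). There it was -0.07 (SE 0.01) in the members, a change of only -0.04 (SE 0.01, limma adjusted p = 0.0264).

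The gain per TT was itself smaller in the members. In a regression on all 4 step types, each TT added 0.70 (SE 0.02) to the CPD log2 intensity in probes with 1 to 8 steps and 0.36 (SE 0.01) in the members, a change of -0.34 (SE 0.02, limma adjusted p = 4.76e-06). Within All_9mer_14bp alone the change was smaller, from 0.60 to 0.36, or -0.23 (SE 0.01, limma adjusted p = 1.66e-05). On the linear scale a TT was worth 2708 (SE 117) units below and 1674 (SE 75.2) in the members. The other steps carried small negative CPD coefficients in the members, -0.05 for TC, -0.07 for CT and -0.10 for CC, with SEs of 0.01 each. The TC value passed (limma adjusted p = 0.0187) but not without replicate 1 or without replicate 2 of CPD without UV (-0.04 and -0.05). CC therefore marked the dim end: members with 6 CC over both strands read 2773 ± 228 (SD, n = 2) with CPD, and those with 8 CC read 1800 ± 71.6. A member with more CC has fewer TT at about the same total, so these coefficients compare step types within a nearly fixed number of steps.

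For 6-4PP the TC step took the leading place. Members with 0 TC over both strands read 8570 and 8804 on the 6-4PP UV arrays, those with 2 TC 12097 and 12101, those with 4 TC 15394 and 15194, and those with 5 TC 20658 and 19723. No flattening was seen along this axis, and the increase from 4 to 5 TC was the largest between neighbouring classes. The same classes fell with CPD, from 8861 ± 791 (SD, n = 2) at 0 TC to 3657 ± 369 at 5 TC. In the regression each TC added 0.49 (SE 0.01) to the 6-4PP log2 intensity below 9 steps and 0.24 (SE 0.01) in the members, a change of -0.25 (SE 0.01, limma adjusted p = 6.95e-06). Within All_9mer_14bp alone this change was smaller, at -0.18 (SE 0.01, limma adjusted p = 3.47e-05). On the linear scale a TC was worth 2657 (SE 56.5) units below and 1819 (SE 68.3) in the members.

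Under the 6-4PP antibody the level rose with the first TT, rose little from 1 to 2 TT, and was lower at 7 TT than at 2 TT. Members without TT read 10204 ± 64.1 (SD, n = 2), those with 1 TT 12679 ± 90.8, those with 2 TT 12984 ± 46.8, and those with 7 TT 11658 ± 318. The 6-4PP coefficient of TT was 0.39 (SE 0.02) below 9 steps and 0.09 (SE 0.01) in the members, a change of -0.30 (SE 0.02, limma adjusted p = 7.59e-06). Within All_9mer_14bp alone this change was smaller, at -0.20 (SE 0.01, limma adjusted p = 3.21e-05). The TT coefficient of the members was larger with CPD than with 6-4PP by 0.28 (SE 0.02, limma adjusted p = 6.98e-05). CT added 0.05 (SE 0.01, limma adjusted p = 0.00689), a call lost without replicate 1 of 6-4PP with UV (0.05, limma adjusted p = 0.0528), and CC -0.0010 (SE 0.01, limma adjusted p = 0.949) in the members. All_9mer_14bp_15829, with no TT and 1 TC on each strand, read 1767 and 1867 with CPD after UV but 14282 and 14827 with 6-4PP. Its non-UV readings were 1239 and 912 with CPD and 1569 and 1015 with 6-4PP.

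Steps on the printed strand went with far more signal than steps on the complement. The 119 members with all steps on the printed strand read 13690 and 11834 with CPD after UV, and the 148 members with all steps on the complement read 3502 and 3173. With 6-4PP these were 21593 and 22959 against 6458 and 6543. The groups of arrays did not overlap, and the log2 difference was 1.88 (SE 0.06) for CPD and 1.57 (SE 0.06) for 6-4PP (limma adjusted p = 7.37e-07 and 1.39e-06). Under quantile normalization, which gives all 8 arrays 1 distribution, these fell to 0.60 and 0.19 and no longer passed. Between these ends the intensity rose with the number of printed steps. Counting printed steps from 0 to 9 at about the same total, the CPD median went from 3337 ± 232 (SD, n = 2) through 5973 ± 528 at 4 to 12062 ± 785 at 9, and the 6-4PP median from 6501 ± 60.5 through 11542 ± 139 to 21740 ± 386. The 22 members with 10 printed steps read 14067 ± 1205 with CPD and 20867 ± 22.5 with 6-4PP. On the non-UV arrays the ends also differed a little, 1309 and 1040 against 1203 and 1049 with CPD, and 1692 and 1310 against 1411 and 1177 with 6-4PP.

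Single probes went the same way, but those quoted differ in step make-up as well as in strand. All_9mer_14bp_40264, with 10 printed steps that include 3 TT, read 1244 and 1090 without UV and 18163 and 17304 with it under CPD. Under 6-4PP it went from 1784 and 1888 to 30357 and 28040. All_9mer_14bp_3450, with 10 complement steps that include 1 TT, went from 1294 and 1309 to 2232 and 2306 under CPD and from 1445 and 1546 to 5721 and 6963 under 6-4PP. Both arrays of each UV group lay above both non-UV arrays in these probes, with uncentred log2 changes of 3.93 (SE 0.16) and 0.80 (SE 0.16) for CPD (limma adjusted p = 3.48e-07 and 0.00139). After UV the other printed-only member, All_9mer_14bp_2276 with 3 TT, was dimmer, at 13867 and 11562 with CPD and 17223 and 15398 with 6-4PP. The other complement-only member, All_9mer_14bp_11067 with 1 TT, read 2649 and 2689 with CPD and 6689 and 5813 with 6-4PP.

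By step type, the strand gap was widest for TT under CPD. Printed TT from 0 to 5 gave CPD medians of 3054 ± 211 (SD, n = 2), 7053 ± 506, 9998 ± 786, 12701 ± 940, 16085 ± 1115 and 20490 ± 1218, a rise with no flattening up to 5 on the linear scale. On the log2 scale the first TT gained most. There the UV minus non-UV levels above the step-free probes were 0.91, 2.12, 2.61, 2.96, 3.30 and 3.64. The 20 members with 6 printed TT read 21320 ± 2363, which differed from 5 by less than the spread between arrays. In log2 above the step-free probes, replicate 1 went from 3.73 at 5 to 3.83 at 6, and replicate 2 from 3.619 to 3.620. Complement TT from 0 to 5 gave 6248 ± 531, 6431 ± 568, 6374 ± 425, 6483 ± 356, 7267 ± 900 and 6268 ± 654. These differed by less than or about the spread between arrays, though the class with 4 was the highest of them on both arrays. The 15 members with 6 complement TT read higher, at 8348 ± 227. Among members with 0 printed TT, however, the CPD median went from 1996 ± 68.4 at 0 complement TT to 3003 ± 223 at 1, 4707 ± 440 at 3 and 5371 ± 501 at 5. In the regression on both strands a printed TT added 0.55 (SE 0.01) and a complement TT 0.14 (SE 0.01), a difference of 0.41 (SE 0.01, limma adjusted p = 4.28e-07).

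For 6-4PP the printed TC had the largest coefficient of any step type on either strand. Printed TC from 0 to 4 gave 8489 ± 39.0 (SD, n = 2), 12110 ± 56.1, 15599 ± 43.9, 19170 ± 411 and 23807 ± 1061, again with no flattening on the linear scale. On the log2 scale the first TC gained most, with UV minus non-UV levels of 2.17, 2.65, 2.98, 3.25 and 3.55. The coefficient was 0.29 (SE 0.01) for a printed TC and 0.18 (SE 0.01) for a complement TC, a difference of 0.11 (SE 0.01, limma adjusted p = 0.000166). TT added 0.16 (SE 0.01) on the printed strand and 0.01 (SE 0.01, limma adjusted p = 0.63) on the complement, a difference of 0.15 (SE 0.01, limma adjusted p = 4.04e-05). CT showed the widest 6-4PP gap, 0.14 against -0.06, a difference of 0.20 (SE 0.01, limma adjusted p = 2.59e-05), and CC 0.07 against -0.06. Under quantile normalization the 6-4PP strand differences were 0.04 for TC, 0.07 for TT, 0.06 for CT and 0.04 for CC, and none passed. All_9mer_14bp_34529, with 4 printed TC, read 26827 and 27519 with 6-4PP after UV and 2022 and 1357 without. All_9mer_14bp_17963, with 0 printed TC, read 9162 and 9407 after UV and 1345 and 1659 without. These 2 members also differ in printed steps, 9 in All_9mer_14bp_34529 and 4 in All_9mer_14bp_17963.

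How the thymines were grouped changed the level at an equal number of printed TT, in classes picked with the values in view. A run of 3 T counts as 2 TT, and so do 2 separate pairs. Members with 2 printed TT in 1 T run read 9045 and 8349 with CPD after UV, and those with 2 T runs read 12510 and 11488. With 3 printed TT the CPD median was 10300 ± 736 (SD, n = 2) in 1 run, 14486 ± 1227 in 2 runs and 19045 ± 2575 in 3 runs. The difference between several runs and 1 run was 0.45 (SE 0.01) at 2 printed TT and 0.50 (SE 0.03) at 3 for CPD (limma adjusted p = 3.82e-07 and 1.44e-05). At 3 printed TT it was 0.24 under quantile normalization and did not pass. For 6-4PP it was 0.73 (SE 0.01) and 0.86 (SE 0.03) (limma adjusted p = 6.27e-08 and 8.79e-07).

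Within 1 T run the antibodies parted. As the printed run grew from 1 to 4 TT, CPD rose from 7053 ± 506 (SD, n = 2) through 8697 ± 492 and 10300 ± 736 to 11776 ± 899. Over the same classes 6-4PP fell from 14497 ± 178 through 11281 ± 120 and 10013 ± 262 to 9683 ± 488. The classes are not equal in other respects: the mean number of printed TC was 1.08 in members with 2 TT in 1 run and 1.46 in those with 2 runs, and the mean number of printed steps 5.08 and 5.87. Their part in the difference was not tested. All_9mer_14bp_24216, whose 3 printed TT form 1 run, read 11060 and 9396 with CPD and 12958 and 13098 with 6-4PP after UV. All_9mer_14bp_14127, whose 3 printed TT are separate pairs, read 19366 and 16491 with CPD and 27456 and 23705 with 6-4PP.

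The level also differed with the base before a step, again in classes picked with the values in view. Among members with 1 printed TT, CPD read 10431 and 9274 when A came before it, 6849 and 6143 after C, and 5769 and 5092 after G. The 6-4PP readings were 16735 and 16770 after A, 15826 and 16011 after C, and 8242 and 7955 after G. A before TT exceeded G before TT by 0.86 (SE 0.02) for CPD and 1.05 (SE 0.02) for 6-4PP (limma adjusted p = 2.99e-07 and 7.03e-08). C exceeded G by 0.25 (SE 0.03) for CPD and 0.96 (SE 0.03) for 6-4PP (limma adjusted p = 0.000363 and 4.66e-07), and the CPD value was 0.06 under quantile normalization and did not pass. Members with 1 printed TC gave 6-4PP readings of 13083 ± 107 (SD, n = 2) after A, 12502 ± 244 after C and 8658 ± 9.99 after G. With CPD the order was not the same for TC. There A exceeded G by 0.23 (SE 0.02), but C lay below G, at -0.28 (SE 0.02) (limma adjusted p = 1.96e-05 and 6.04e-05). A C before TT or TC itself forms a printed CT step, so the classes after C differ in steps as well as in the base before. The mean number of printed steps was 4.17, 5.06 and 3.96 in the TT classes after A, C and G, and its part was not tested.

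Separate runs and run length sorted the members too. From 2 to 5 separate runs the CPD median went from 5570 ± 298 (SD, n = 2) to 7302 ± 595 and the 6-4PP median from 10358 ± 132 to 14602 ± 291. As the longest run grew from 4 to 7 bases, 6-4PP fell from 13334 ± 16.0 to 11672 ± 58.9. CPD went from 6543 ± 436 to 6182 ± 501, a change within the spread between arrays. It was downward on both arrays, from 2.09 to 2.02 and from 1.96 to 1.87 in log2 above the step-free probes. The 1366 probes with 9 or more steps but a run of 8 or more bases read 5795 ± 456 with CPD and 11304 ± 7.98 with 6-4PP after UV. At equal total steps the members exceeded them by 0.21 (SE 0.02) on the log2 scale with either antibody (limma adjusted p = 0.00021 for CPD and 0.000188 for 6-4PP). The CPD value was 0.09 under quantile normalization and no longer passed. The 2 kinds of probe were matched on total steps only, not on strand. Printed steps had a median of 5 in the members and 3 in the probes with longer runs (means 4.54 and 4.62). Complement steps had medians of 5 and 7. The part of strand in the difference was not tested.

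The rule leaves total steps only the range from 9 to 12, so they can account for little of the variation within the members. The 8 numbers of each step type on each strand accounted for 65.9% and 64.5% of the log2 variance on the CPD UV arrays and for 33.4% and 31.9% on the 6-4PP UV arrays. In probes with 1 to 8 steps the same 8 numbers accounted for 67.8% and 65.9% with CPD and 44.2% and 43.7% with 6-4PP. Individual members spanned a wide range after UV, from 2341 at the 10th percentile to 15777 at the 90th on CPD replicate 1 and from 5927 to 23896 on 6-4PP replicate 1. The largest CPD rises were in probes with 4 to 6 printed TT. All_9mer_14bp_7702, with 4 printed TT in several T runs and 2 complement TT, read 1225 and 1127 without UV and 46764 and 35417 with it. Its uncentred log2 change was 5.11 (SE 0.21, limma adjusted p = 3.48e-07). All_9mer_14bp_30458 rose most with both antibodies, to 42751 and 88434 with CPD and 35537 and 87256 with 6-4PP, but its spot was saturated on at least 1 array and was brighter on both replicate 2 arrays. All_9mer_14bp_26587, with 3 printed TC and 3 printed TT, read 53804 and 45124 with 6-4PP and 24296 and 19460 with CPD after UV, from 1525 and 1332 and from 1140 and 1094 without UV.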

How the data were processed

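The 8 arrays were deposited as spot tables. Per the file headers, the authors give an Alexa 488 scanner intensity and an intensity adjusted for the local neighbourhood, both on a linear scale, and the adjusted intensity as deposited was used. It was made with software not given in the sources used here. Log2 values were averaged over the spots of a sequence and centred on the array median. All 122095 sequences were fitted with limma 3.58.1 (lmFit and eBayes, R 4.3.3) over all 8 arrays, with Benjamini-Hochberg adjustment and a threshold of 0.05. Class summaries (medians of classes of at least 10 probes, set against step-free probes on the same array, slopes, coefficients and strand differences) were computed with Python 3.11.15, numpy 2.4.6 and pandas 2.3.3. The 152 summaries were fitted with limma in the same design, adjusted within each contrast. Class levels in the text are medians of uncentred intensity. The probe fit was tested on simulated data.

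Members and classes were chosen with earlier results of these data known. Named by rule were the 4 largest and 4 smallest uncentred rises per antibody, the 4 members with the most steps, and the 2 with the largest and the 2 with the smallest printed share of steps. Alternatives were the unadjusted intensity, quantile normalization, no centring, an offset of 100, saturated spots left out, step minimums of 8 and 10, a run limit of 5, a linear scale, means for medians, a replicate block, each array left out, trend and robust options in eBayes, and fits per antibody. Added after seeing the data were All_9mer_14bp alone, a block for same-numbered arrays of 1 condition, and the slopes and coefficients in a table of their own. Same-numbered UV and non-UV arrays of 1 antibody did not deviate together (correlation of deviations over members -0.0089 and -0.011), so the replicate number was not treated as a pairing. Same-numbered arrays of the 2 antibodies within 1 condition did deviate together (0.687 with UV and 0.778 without). The main fit takes these arrays as independent, which bears on its p-values for the difference between the antibodies. Arrays give no counts, and their number limits the precision.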

Additional observations from a re-analysis of the deposited data

Results flagged for a closer look

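The UV effect differed between the antibodies in 133 of 152 class summaries, by the limma test of the difference itself. The change of slope between probes with 1 to 8 steps and the members did not pass (0.03, limma adjusted p = 0.18), and 4 contrasts within the members that did are given here. Positive values mean a larger effect with CPD and negative values a larger effect with 6-4PP, on the log2 scale. The TT coefficient within the members differed by 0.28 (limma adjusted p = 6.98e-05), and the TC coefficient by -0.29 (limma adjusted p = 7.91e-05). Splitting 2 printed TT over several T runs gained more with 6-4PP, a difference of -0.29 (limma adjusted p = 6.98e-05). C in place of G before a single printed TT also gained more with 6-4PP, a difference of -0.70 (limma adjusted p = 6.98e-05). That C also adds a printed CT step, and the part of the added step was not tested. With same-numbered arrays of 1 condition taken as pairs, the 4 contrasts, in the order given, had limma adjusted p = 0.0021, 0.0023, 0.0020 and 0.00083.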

How the results depend on the processing

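Of the alternatives to the change of slope (either antibody), the changes of the TT (either antibody) and 6-4PP TC coefficients, the TT (either antibody) and 6-4PP TC strand differences, members against tract probes and the shares of members called, 263 kept their direction and their side of the threshold (shares of members within 1.5 times) and 7 did not, all under quantile normalization, which by construction gives UV and non-UV arrays 1 distribution. Of the alternatives to the other results, 592 kept both, 38 lost the call, 2 gained one and 7 reversed. Under quantile normalization the 6-4PP slope change was -0.066, the 6-4PP strand difference 0.068 for TT and 0.035 for TC, and the CPD difference between members and tract probes 0.088. Limma then called 7.87% of the members with CPD, 7.72% with 6-4PP and 0% for the antibody difference, beside 6.91, 5.37 and 0.00% of all sequences, and 15.0% of the members had an unadjusted p under 0.05 for the difference. The weak CPD slope among the members turned to -0.0084 under quantile normalization and to -0.0067 with runs of at most 5 bases. The 6-4PP coefficient of CC in the members, near 0 in the report, turned to 0.011 with the unadjusted intensity, 0.038 under quantile normalization and 0.018 with runs of at most 5 bases, and ranged from -0.0060 to 0.0041 with 1 array left out. The cause was not tested. Leaving out 1 array at a time kept the CPD slope change between -0.17 and -0.14 and the 6-4PP change between -0.19 and -0.18, and the shares of members called between 72.1 and 80.8% for CPD, 70.8 and 76.8% for 6-4PP and 41.5 and 51.6% for the difference. With the replicate number as a block the shares were 79.8, 78.4 and 52.7%, and of the results recomputed only the CPD slope among the members changed its call. Treating same-numbered arrays of 1 condition as pairs gave 62.9% for the difference, beside 64.2% of all sequences. Each member has 1 spot per array and each group 2 arrays, so differences between single members with less than the array spread cannot be seen.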
